A study of Mus musculus with 9 samples.

Results

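The 35 genes described here are glycolytic enzymes, the glucose transporter gene Slc2a1, the lactate transporter gene Slc16a3, and genes of the response to low oxygen. They were chosen by name, with no measured value in the rule but with earlier results of these data known, and all 35 were found among the 55453 gene symbols counted and among the 19166 genes with enough reads to be tested. The RNA came from the whole pancreas of e18.5 mouse embryos on a mixed C57BL6 background, with 3 libraries in each of 3 groups. All embryos carried Pdx1:Cre, in which the Pdx1 promoter drives Cre recombinase in the pancreatic epithelium, and the control label names nothing else. The second group is labelled Pdx1:Cre;Grg3 and the third Pdx1:Cre;Grg3Grg4, where Grg3 and Grg4 are Groucho co-repressors encoded by Tle3 and Tle4. The labels do not describe the Grg3 and Grg4 alleles, and the organ also holds mesenchyme, vessels, nerves and blood, in which the Pdx1 promoter is not active.

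Glycolysis splits glucose into pyruvate, and lactate dehydrogenase turns pyruvate into lactate when the mitochondria do not take it up. When oxygen is low, the transcription factor HIF-1 escapes degradation that starts with hydroxylation by the Egln enzymes, and it raises transcription of glucose transporters, most glycolytic enzymes, Ldha, Pdk1, Vegfa and its own hydroxylase Egln3. HIF binds hypoxia response elements, whose cores read ACGTG or GCGTG. Groucho proteins do not bind DNA themselves and repress through the transcription factors that recruit them.

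Promoter sequence is shown for the 3 genes called changed, P4ha1, Slc2a1 and Pfkl, and for Slc16a3 and Ldha, which carry ACGTG cores close to their starts. The capitals mark ACGTG or GCGTG on either strand, so that CACGT and CACGC are cores read on the opposite strand and CACGTG is a core on both. Slc16a3 and Ldha were chosen after their values were seen. All are RefSeq windows of build GRCm38.p6, written 5′ to 3′ along the gene from at most 250 bases before its start, with most bases under annotated exons left out at the ends. The printed Pfkl, Slc16a3 and Ldha stretches lie inside the GENCODE gene, before a later start that RefSeq gives. The P4ha1 stretch is chr10:59323046-59323295 (plus strand), Slc2a1 is chr4:119108495-119108713 (plus strand), Pfkl is chr10:78009808-78010004 (minus strand), Slc16a3 is chr11:120948817-120949057 (plus strand) and Ldha is chr7:46845554-46845803 (plus strand).
P4ha1: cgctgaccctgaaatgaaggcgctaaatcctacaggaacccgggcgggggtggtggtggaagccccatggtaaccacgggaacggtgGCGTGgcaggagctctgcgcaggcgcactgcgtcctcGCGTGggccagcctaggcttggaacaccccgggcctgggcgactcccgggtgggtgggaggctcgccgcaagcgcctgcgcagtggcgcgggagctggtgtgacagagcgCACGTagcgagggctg
Slc2a1: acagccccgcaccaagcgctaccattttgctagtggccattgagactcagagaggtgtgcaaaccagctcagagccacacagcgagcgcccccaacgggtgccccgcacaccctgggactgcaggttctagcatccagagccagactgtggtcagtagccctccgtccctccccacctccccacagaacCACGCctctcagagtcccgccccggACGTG
Pfkl: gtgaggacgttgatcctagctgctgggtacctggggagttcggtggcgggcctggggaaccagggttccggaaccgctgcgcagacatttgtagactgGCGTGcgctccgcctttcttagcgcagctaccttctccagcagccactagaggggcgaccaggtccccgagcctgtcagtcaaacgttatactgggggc
Slc16a3: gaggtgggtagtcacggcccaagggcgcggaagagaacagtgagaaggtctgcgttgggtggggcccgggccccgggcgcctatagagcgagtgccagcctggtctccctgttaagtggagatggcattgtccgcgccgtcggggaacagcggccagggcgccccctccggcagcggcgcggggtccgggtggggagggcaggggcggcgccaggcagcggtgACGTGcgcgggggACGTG
Ldha: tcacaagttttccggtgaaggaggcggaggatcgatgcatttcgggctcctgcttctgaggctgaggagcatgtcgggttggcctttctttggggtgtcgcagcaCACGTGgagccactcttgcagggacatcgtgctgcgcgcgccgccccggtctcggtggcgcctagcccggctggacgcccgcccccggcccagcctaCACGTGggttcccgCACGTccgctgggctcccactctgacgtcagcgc

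P4ha1 has 2 GCGTG cores, 163 and 126 bases before the start, and 1 ACGTG core on the opposite strand 16 bases before it. Slc2a1 has a GCGTG core on the opposite strand 61 bases before the start and an ACGTG core 36 bases before it. Pfkl has a single GCGTG core 99 bases before the start, and Slc16a3 has 2 ACGTG cores, 27 and 14 bases before it. RefSeq promoters were matched for 33 of the 35 genes; Bnip3l and Ndrg1 had no entry. Within 250 bases before a start, 30 of the 33 genes (90.9%) held either core, against 41.5% of the 27025 genes with a promoter and 57.3% of the 12935 tested genes with one. A gene with several starts counted if any of its windows held the core. By window, 77.6% of the 49 windows of these genes held either core, against 38.6% of all 32851 windows. ACGTG was present in 57.6% of the 33 genes, against 4998 of the 27025 genes and 23.6% of tested genes, and GCGTG in 69.7%, against 30.9% and 46.1%. The windows of the 33 genes were 61.2% G and C, those of all genes 53.2% and those of tested genes 59.0%, and the part of base composition in the motif counts was not tested. The list was drawn up by name to include HIF target genes, and HIF binds such cores, so the motif counts only describe the list. Eno2, Gpi1 and Tpi1 held neither core, which says only that these letters are not in the window.

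Gene counts summed to 46817453 to 62744499 per library. Levels are given as CPM, which here is a gene's share of the TMM-adjusted library size times 1e+06, and a gene was called at an edgeR quasi-likelihood adjusted p under 0.05. Tle3, the gene of Grg3, was called higher in both mutant labels: it stood at 63.1, 67.7 and 63.7 CPM in the control libraries, 148, 167 and 145 CPM in the libraries labelled Grg3, and 131, 126 and 146 CPM in those labelled Grg3Grg4. The log2 fold changes were 1.24 (SE 0.09, edgeR adjusted p = 0.00027) and 1.05 (SE 0.09, edgeR adjusted p = 0.000557). The labels do not describe the alleles, so the groups are named by their labels throughout. Counts over the whole gene do not show which exons the reads came from. Tle4 stood at 7.68 to 7.85 CPM in controls, 9.83 to 13.8 CPM in the Grg3 label and 8.63 to 15.5 CPM in the Grg3Grg4 label. The markers of pancreas were abundant: 25 acinar enzyme genes summed to 387000 to 444000 CPM in controls, 208000 to 394000 CPM in the Grg3 label and 251000 to 287000 CPM in the Grg3Grg4 label, with 6 and 8 of the 25 called lower than in controls. The 15 endocrine genes summed to 6370 to 7710 CPM in controls, 3980 to 6240 CPM in the Grg3 label and 2140 to 4560 CPM in the Grg3Grg4 label, with 0 and 3 called lower by edgeR (in the Grg3 label 4 had an unadjusted p under 0.05, 2 of them higher). RNA of liver genes was higher in libraries with both labels, with 9 of the 11 liver genes tested called higher in each. Those genes summed to 212 to 227 CPM in controls, 362 to 1790 CPM in the Grg3 label and 841 to 2040 CPM in the Grg3Grg4 label. The 15 muscle genes summed to 136 to 188 CPM in controls, 364 to 975 CPM in the Grg3 label and 235 to 3530 CPM in the Grg3Grg4 label. Replicate 2 had the highest sum in each mutant label. EdgeR called none of the 14 tested. In the Grg3 label 6 of them had an unadjusted p under 0.05, and in the Grg3Grg4 label 14, all higher. Over all 19166 genes tested 3661 and 3866 did, in either direction. The list joins smooth and striated muscle genes. Across Grg3 replicates 1, 2 and 3, smooth-muscle Myh11 measured 58.8, 204 and 66.7 CPM, and striated-muscle Actc1 4.09, 0.892 and 3.47 CPM. Both were highest in Grg3Grg4 replicate 2, at 227 and 172 CPM. By their sex-linked genes, all 3 libraries labelled Grg3Grg4 were male, against 1 of 3 in each of the other groups. In a bulk sample, fewer cells of a type and less RNA per cell cannot be told apart.

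Slc2a1, which brings glucose into cells, Pfkl, an enzyme of the committing step of glycolysis, and P4ha1, which hydroxylates collagen, rose in the libraries labelled Grg3, and none of the 35 genes was called lower. That is 8.57% of the 35 genes called higher, where 0.704% of all genes tested were called higher, 0.694% lower and 1.4% in either direction. The median log2 fold change of the 35 genes was 0.35, against 0.02 over all genes tested, and 30 of the 35 estimates were above 0. In 19 of the 35 genes (54.3%) all 3 libraries labelled Grg3 lay above all 3 controls, where 12.6% of all genes did, and in none did they lie below, where 12% of all genes did. An unadjusted p under 0.05 was reached by 18 of the 35 genes, all with a higher level in the Grg3 label, where 3661 of all 19166 genes tested reached it in either direction. Without any 1 control, or without Grg3 replicate 1, none of the 35 genes was called, and without Grg3 replicate 2 there were 5. The log2 fold changes of the 3 genes moved little over all 16 alternatives, at 0.60 to 0.75 for Slc2a1, 0.50 to 0.56 for Pfkl and 0.35 to 0.40 for P4ha1, and leaving out a library leaves fewer replicates. With replicate 2 of both mutant labels left out, the libraries of highest summed muscle level, 10 genes were called higher (this alternative was chosen after seeing the data). Calls over all genes moved too, from 268 in the main fit to 567 in that alternative. They numbered 232, 44 and 32 without control replicate 1, 2 and 3, 75 without Grg3 replicate 1 and 289 without Grg3 replicate 2.

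None of the 35 genes was called in the Grg3Grg4-labelled libraries against control by edgeR, where 1.24% of all genes were called higher, 0.897% lower and 2.14% in either direction. By unadjusted edgeR p under 0.05 there were 11 of 35, of which 10 were higher, where 3866 of all 19166 genes tested reached it in either direction. DESeq2's Wald test called 1 (Hk1) and limma's voom with quality weights called 0, where they called 1454 and 1033 over all genes. The median log2 fold change of the 35 genes was 0.20, against 0.01 over all genes, and 29 of 35 estimates were above 0. As a mean over the 35 genes of log2 CPM relative to all 9 libraries, controls lay at -0.19, -0.12 and -0.17. The libraries labelled Grg3 lay at 0.15, 0.08 and 0.22. Those labelled Grg3Grg4 lay at -0.14, 0.04 and 0.12, so replicate 1 lay within the controls. All 3 Grg3Grg4 libraries lay above the controls in 11 genes (31.4%, against 14.9% of all genes) and below them in 3 (8.57%, against 14.2%). Against the libraries labelled Grg3, 1 gene was called lower in the Grg3Grg4 label, P4ha1, which is 2.86% of the 35 where 0.0574% of all genes tested were called lower and 0.188% in either direction. All 3 Grg3Grg4 libraries lay below the Grg3 libraries in 5 genes (14.3%, against 9.3% of all genes) and above them in 1 (2.86%, against 11.8%). All 6 mutant-labelled libraries lay above the controls in 7 genes (20%, against 4.91% of all genes) and below them in 0 (against 5.75%). The 3 comparisons share groups, so they are not independent readings.

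**Figure D1:**
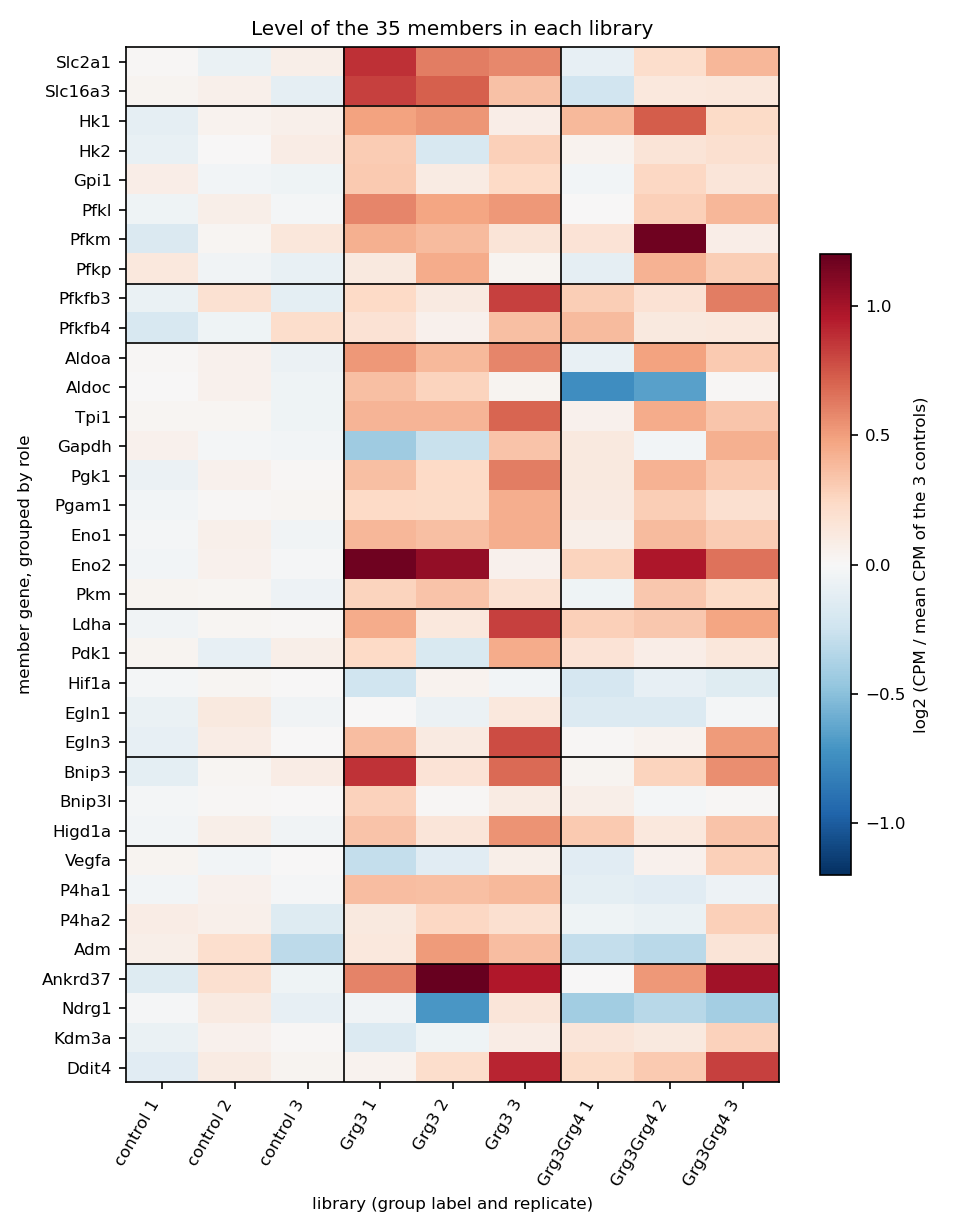
Level of the 35 genes (rows, by role) in the 9 libraries (columns), as log2 of CPM over the mean of the 3 controls; red is higher and blue lower, and there are no error bars. Grg3 replicate 3 held the highest level of 14 genes, Grg3 replicate 1 of 9 and Grg3 replicate 2 of 5, and no control held the highest level of any.

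Of the 2 transport genes, Slc2a1 was called higher in the libraries labelled Grg3 and Slc16a3 was not called. Slc2a1 (chr4:119108711-119137983, GRCm38, plus strand), which encodes the glucose transporter GLUT1, measured 52.6, 49.4 and 54.7 CPM in controls, 96.0, 80.2 and 77.7 CPM in the Grg3 label, and 48.7, 60.6 and 69.0 CPM in the Grg3Grg4 label. All 3 Grg3 libraries lay above every other library, and the Grg3Grg4 libraries overlapped the controls. The means were 52.2 ± 2.67, 84.6 ± 9.94 and 59.4 ± 10.2 CPM (SD, n = 3), a 1.62-fold rise in the Grg3 label with a log2 fold change of 0.70 (SE 0.13, edgeR adjusted p = 0.0342). In the Grg3Grg4 label the log2 fold change was 0.19 (SE 0.13, edgeR adjusted p = 0.454). The difference between the mutant labels was -0.51 (SE 0.13), which edgeR did not call (adjusted p = 0.116). Over 16 alternatives the Slc2a1 change in the Grg3 label ran from 0.60 to 0.75 and stayed past the threshold in 11. It missed it with the replicate number as a block, and without control replicate 1, 2 or 3 or Grg3 replicate 1. The adjusted p over all alternatives ran from 0.000113 to 0.151. GLUT1 is also the transporter of red cells, and 10 erythroid genes summed to 1680 to 2060 CPM in controls, 3390, 2590 and 1930 CPM in Grg3 replicates 1, 2 and 3, and 3410, 1700 and 1730 CPM in Grg3Grg4 replicates 1, 2 and 3. None of the 10 was called, and the part of red-cell RNA in the Slc2a1 levels was not tested.

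Slc16a3, the gene of the lactate exporter MCT4, measured 20.4, 20.8 and 18.51 CPM in controls, 35.1, 32.8 and 25.4 CPM in the Grg3 label, and 17.0, 21.7 and 21.8 CPM in the Grg3Grg4 label. Its Grg3 libraries also lay above all the others. The log2 fold change of 0.64 (SE 0.14) in the Grg3 label was not called by edgeR (adjusted p = 0.0573), nor was the difference of -0.62 between the mutant labels (adjusted p = 0.0913).

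**Figure D2:**
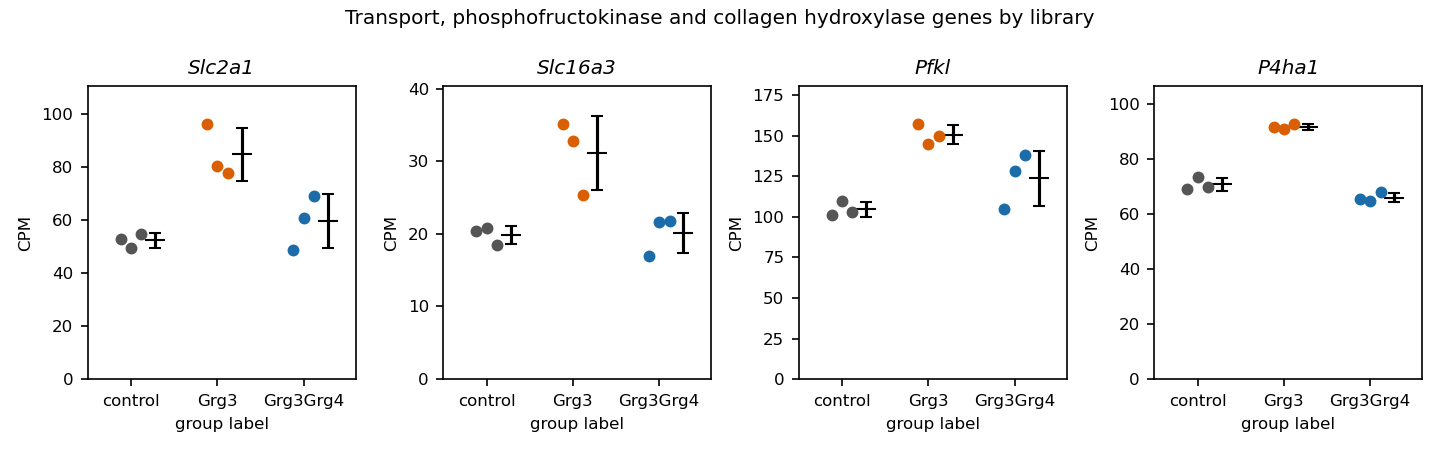
CPM of Slc2a1, Slc16a3, Pfkl and P4ha1 by group label, each on an axis from 0; dots are libraries and black bars are mean ± SD (n = 3). In each panel the 3 libraries labelled Grg3 lie above the 3 controls, and above the 3 libraries labelled Grg3Grg4.

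Among the 6 genes of the hexose phosphate steps, Pfkl was called and the other 5 were not. Phosphofructokinase commits sugar to glycolysis, and Pfkl (chr10:77986947-78010083, GRCm38, minus strand) encodes its liver-type subunit. It measured 101, 110 and 103 CPM in controls, 157, 145 and 150 CPM in the Grg3 label, and 105, 128 and 138 CPM in the Grg3Grg4 label. The Grg3 libraries lay above all the others, while Grg3Grg4 replicate 1 lay within the controls. The rise in the Grg3 label was 1.44-fold, with a log2 fold change of 0.52 (SE 0.10, edgeR adjusted p = 0.041). In the Grg3Grg4 label it was 0.24 (SE 0.10, adjusted p = 0.228 by edgeR). The Pfkl call held in 9 of 16 alternatives. It missed the threshold with embryo sex as a term (log2 fold change 0.52, adjusted p = 0.063 by edgeR). It also missed it with the replicate number as a block, and without control replicate 1, 2 or 3 or Grg3 replicate 1 or 3.

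Hk1, a hexokinase that traps glucose in the cell as glucose 6-phosphate, measured 33.4, 37.0 and 37.5 CPM in controls, 50.1, 51.9 and 37.9 CPM in the Grg3 label, and 47.2, 59.5 and 42.1 CPM in the Grg3Grg4 label. All 6 lay above the controls, but Grg3 replicate 3 exceeded the highest control only narrowly. Neither log2 fold change was called by edgeR (0.37, adjusted p = 0.205; 0.46, adjusted p = 0.12). Hk2 and Gpi1, the second hexokinase and the glucose 6-phosphate isomerase, had log2 fold changes of 0.12 to 0.22. Pfkm, the muscle-type subunit, lay at 21.3 and 22.6 CPM in 2 libraries labelled Grg3Grg4 and at 45.4 CPM in replicate 2. That library had the highest muscle level, at 3530 CPM summed over 15 muscle genes, against 507 and 235 CPM in the other 2, and the part of muscle RNA in the Pfkm level was not tested. Pfkp, the platelet-type subunit, ranged from 20.6 to 30.3 CPM over the 9 libraries.

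Pfkfb3 and Pfkfb4 make or remove fructose 2,6-bisphosphate, which activates phosphofructokinase, and neither was called. Pfkfb3 measured 35.3, 42.2 and 34.3 CPM in controls, 43.9, 40.1 and 66.0 CPM in the Grg3 label, and 45.8, 42.0 and 57.1 CPM in the Grg3Grg4 label. Replicate 3 was the highest of each mutant label, and both labels overlapped the controls. The log2 fold changes were 0.42 and 0.37 (SE 0.19 each). Pfkfb4 lay between 6.47 and 9.63 CPM in all 9 libraries.

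None of the 9 genes from aldolase to pyruvate kinase was called by edgeR in either label against control. In the Grg3 label 7 of them had an unadjusted p under 0.05, all higher (3661 of 19166 over all genes, in either direction), and 6 lay above the controls without overlap (12.6% of all genes). Tpi1, the triose phosphate isomerase, measured 246, 246 and 233 CPM in controls, 320, 320 and 392 CPM in the Grg3 label, and 250, 329 and 305 CPM in the Grg3Grg4 label. Pgk1, the phosphoglycerate kinase, measured 107, 117 and 114, then 145, 133 and 172, then 122, 150 and 140 CPM in the same order of groups. Both genes lay above the controls in all 6 mutant-labelled libraries, by little in Grg3Grg4 replicate 1. Pgam1, a phosphoglycerate mutase, measured 68.4, 70.8 and 71.0 CPM in controls, 82.5, 82.4 and 94.7 CPM in the Grg3 label, and 75.4, 86.0 and 80.0 CPM in the Grg3Grg4 label. Eno1, the main enolase, measured 297, 315 and 294 CPM in controls, 399, 388 and 409 CPM in the Grg3 label, and 318, 394 and 374 CPM in the Grg3Grg4 label. These 2 genes, too, did not overlap the controls in either label. The log2 fold changes of the 4 genes in the Grg3 label were 0.51 for Tpi1, 0.42 for Pgk1, 0.30 for Pgam1 and 0.40 for Eno1, with edgeR adjusted p of 0.073 to 0.0978. In the Grg3Grg4 label they were 0.29, 0.29, 0.20 and 0.26, with edgeR adjusted p of 0.177 to 0.227.

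The rest of this stretch of the pathway varied more. Aldoa, the main aldolase, had a log2 fold change of 0.50 in the Grg3 label (edgeR adjusted p = 0.101) and 0.25 in the Grg3Grg4 label. Aldoc, a second aldolase, measured 30.9, 31.9 and 29.8 CPM in controls, 39.7, 37.1 and 31.5 CPM in the Grg3 label, and 18.4, 19.6 and 31.2 CPM in the Grg3Grg4 label. Its 2 low libraries were Grg3Grg4 replicates 1 and 2, and edgeR called it lower against control only when replicate 3 of that label was left out. Eno2, the neuronal enolase, measured 6.05 to 6.43 CPM in controls, 13.9, 12.9 and 6.43 CPM in the Grg3 label, and 7.46, 12.2 and 9.77 CPM in the Grg3Grg4 label, so Grg3 replicate 3 stood with the controls. Gapdh, the glyceraldehyde 3-phosphate dehydrogenase often used as a reference gene, measured 35, 39.2 and 59.8 CPM in the Grg3 label around controls of 46.1 to 48.8 CPM. Pkm, the pyruvate kinase, had log2 fold changes of 0.27 and 0.18. Many reads of these enzymes are hard to place, as 50-base stretches of their transcripts also occur in transcripts of other genes (223 for Gapdh). The shares were 53.9% for Pgk1, 36.2% for Pgam1, 26.0% for Eno1, 25.8% for Pkm and 25.1% for Gapdh. The levels of these enzymes are therefore uncertain, whereas Slc2a1 shared 1.5% and Pfkl, P4ha1 and Slc16a3 shared 0.0%.

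**Figure D3:**
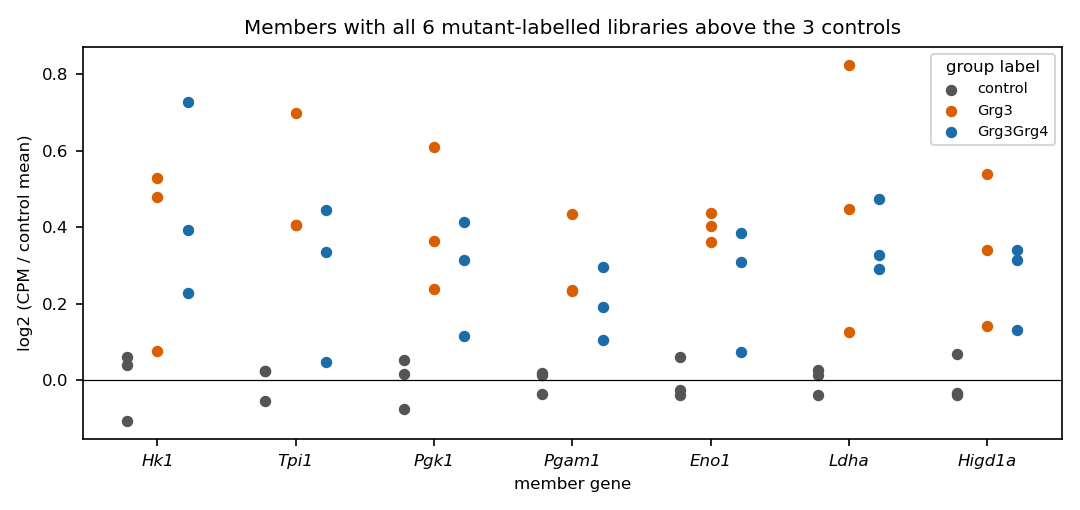
Log2 of CPM over the control mean for the 7 genes in which all 6 mutant-labelled libraries exceeded the 3 controls; each dot is a library, coloured by group label. Such genes were 20% of the 35, against 4.91% of all genes tested; the highest dot is Ldha in Grg3 replicate 3, at 786 CPM against a control mean of 444 CPM.

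Ldha and Pdk1 direct pyruvate, Ldha to lactate and Pdk1 away from the mitochondria by inhibiting pyruvate dehydrogenase. Ldha measured 432, 452 and 448 CPM in controls, 606, 485 and 786 CPM in the Grg3 label, and 543, 557 and 617 CPM in the Grg3Grg4 label. All 6 lay above the controls, and the 3 Grg3 libraries were far apart. The log2 fold changes were 0.49 (SE 0.16) and 0.37 (SE 0.16), and edgeR called neither (adjusted p = 0.131 and 0.223). Pdk1 measured 75.2 to 84.6 CPM in controls, 70.9 to 110 CPM in the Grg3 label and 85.2 to 90.4 CPM in the Grg3Grg4 label. Ldha was the most abundant of the 35 genes per length, at 134 RPKM in controls (CPM per kilobase of exon), followed by Aldoa at 121 RPKM and Tpi1 at 87.7 RPKM; Eno2 was the lowest at 1.32 RPKM.

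None of the 3 genes of oxygen sensing was called in either label. Hif1a, the oxygen-regulated subunit of HIF-1, measured 50.3, 52.0 and 51.4 CPM in controls, 43.5, 52.6 and 50 CPM in the Grg3 label, and 44.6, 47.7 and 46.2 CPM in the Grg3Grg4 label. All 3 Grg3Grg4 libraries lay below the controls, with a log2 fold change of -0.15 that edgeR did not call (adjusted p = 0.329). HIF-1 is controlled mostly through the stability of this protein, which RNA counts do not measure. Egln3, a HIF hydroxylase that is itself a HIF target, measured 58.1, 66.4 and 62.3 CPM in controls, 80.3, 67.2 and 107 CPM in the Grg3 label, and 62.7, 64.1 and 88.5 CPM in the Grg3Grg4 label. Replicate 3 was the highest of each label, and the Grg3 libraries lay above the controls, replicate 2 by little. The log2 fold changes of Egln3 were 0.45 (SE 0.18, edgeR adjusted p = 0.21) and 0.20, and those of Egln1, the main HIF hydroxylase, 0.02 and -0.12. Per length, Egln3 made up 49.9% ± 0.589 of Egln1 and Egln3 RNA in controls, 56.7% ± 4.01 in the Grg3 label and 55.1% ± 3.33 in the Grg3Grg4 label (SD, n = 3). Neither group overlapped the controls, and the exact permutation p of 0.1 for each is the smallest that 3 against 3 allow.

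Among 3 mitochondrial targets, Bnip3, a receptor that hands mitochondria to autophagy, measured 13.8, 15.2 and 16.0 CPM in controls, 27.4, 16.8 and 24.0 CPM in the Grg3 label, and 15.3, 18.1 and 22.1 CPM in the Grg3Grg4 label. The Grg3 libraries lay above the controls, again least in replicate 2. Its log2 fold change of 0.60 (SE 0.19) was not called (edgeR adjusted p = 0.128). Higd1a, a hypoxia-inducible protein of the inner mitochondrial membrane, measured 21, 22.5 and 20.9 CPM in controls, 27.2, 23.7 and 31.2 CPM in the Grg3 label, and 26.7, 23.5 and 27.2 CPM in the Grg3Grg4 label. All 6 lay above the controls, but edgeR called neither change (0.35, adjusted p = 0.134; 0.26, adjusted p = 0.222). Bnip3l, the relative of Bnip3, had log2 fold changes of 0.13 and 0.02. Transcripts of the opposite strand overlap 22.3% of the exon bases of Bnip3 and 22.5% of Higd1a, and without a known strand setting their reads cannot be told apart. Of the 50-base stretches of transcripts, 47.2% of Bnip3, 24.4% of Higd1a and 20.8% of Bnip3l occur in transcripts of other genes, so these levels are also uncertain.

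P4ha1 separated the mutant labels. It encodes a catalytic subunit of the prolyl 4-hydroxylase that stabilises collagen (chr10:59323296-59373304, GRCm38, plus strand), and it measured 69.0, 73.3 and 69.8 CPM in controls, 91.4, 90.6 and 92.5 CPM in the Grg3 label, and 65.2, 64.5 and 67.8 CPM in the Grg3Grg4 label. The 3 groups did not overlap: Grg3 libraries were the highest, and Grg3Grg4 libraries the lowest. The Grg3 libraries rose 1.29-fold over controls (log2 fold change 0.37, SE 0.06, edgeR adjusted p = 0.028). The Grg3Grg4 libraries differed from controls by -0.10 (SE 0.06, edgeR adjusted p = 0.399), and from the Grg3 libraries by -0.48 (SE 0.06, edgeR adjusted p = 0.0282). The rise held in 10 of 16 alternatives. It was lost without control replicate 1, 2 or 3 or Grg3 replicate 1, and with the replicate number as a block. It was also lost when only the 6 libraries compared entered the fit (adjusted p = 0.0641 by edgeR). The difference between the mutant labels held in 7 of 16, at -0.50 to -0.46. It was lost with the replicate number as a block, with sex as a term, and with only the 6 libraries compared. It was also lost without the libraries of highest muscle level, and without Grg3 replicate 1 or 3 or Grg3Grg4 replicate 1, 2 or 3. Collagen genes come largely from mesenchyme, and 10 mesenchyme genes summed to 9810 to 10800 CPM in controls, 8730 to 13800 CPM in the Grg3 label and 9570 to 9820 CPM in the Grg3Grg4 label; the part of cell composition in the P4ha1 levels was not tested. The gene lies on chromosome 10, which held 8 of the 36 genes called between the mutant labels and 4.66% of all genes tested.

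None of the remaining targets was called. P4ha2, the second catalytic subunit, had log2 fold changes of 0.19 and 0.06, and Adm, the vasodilator peptide adrenomedullin, lay at 2.15 to 3.84 CPM over all libraries. Vegfa, the main growth factor of vessels, measured 183, 175 and 180 CPM in controls, 147, 163 and 188 CPM in the Grg3 label, and 163, 186 and 218 CPM in the Grg3Grg4 label, so both labels overlapped the controls. Its log2 fold changes were -0.11 and 0.08. Ankrd37, a small ankyrin-repeat protein gene, had the largest estimate of the 35 in the Grg3 label: 4.95, 8.32 and 6.39 CPM against 2.94, 3.73 and 3.15 CPM in controls. In the Grg3Grg4 label it measured 3.28, 4.69 and 6.59 CPM and overlapped the controls. The Grg3 log2 fold change of 1.0 (SE 0.27) was not called by edgeR (adjusted p = 0.0976), and exons of opposite-strand genes cover 26.4% of its exon bases. Ddit4, a stress-induced inhibitor of mTORC1, measured 90.7, 107 and 102 CPM in controls, 103, 116 and 188 CPM in the Grg3 label, and 117, 124 and 176 CPM in the Grg3Grg4 label, with replicate 3 highest in both. Ndrg1, a hypoxia-inducible stress gene, measured 286, 313 and 270 CPM in controls, 282, 179 and 321 CPM in the Grg3 label, and 217, 230 and 218 CPM in the Grg3Grg4 label. All 3 Grg3Grg4 libraries lay below the controls, and edgeR did not call the log2 fold change of -0.39 (adjusted p = 0.259). Kdm3a, a histone demethylase gene, had log2 fold changes of -0.04 and 0.18.

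**Figure D4:**
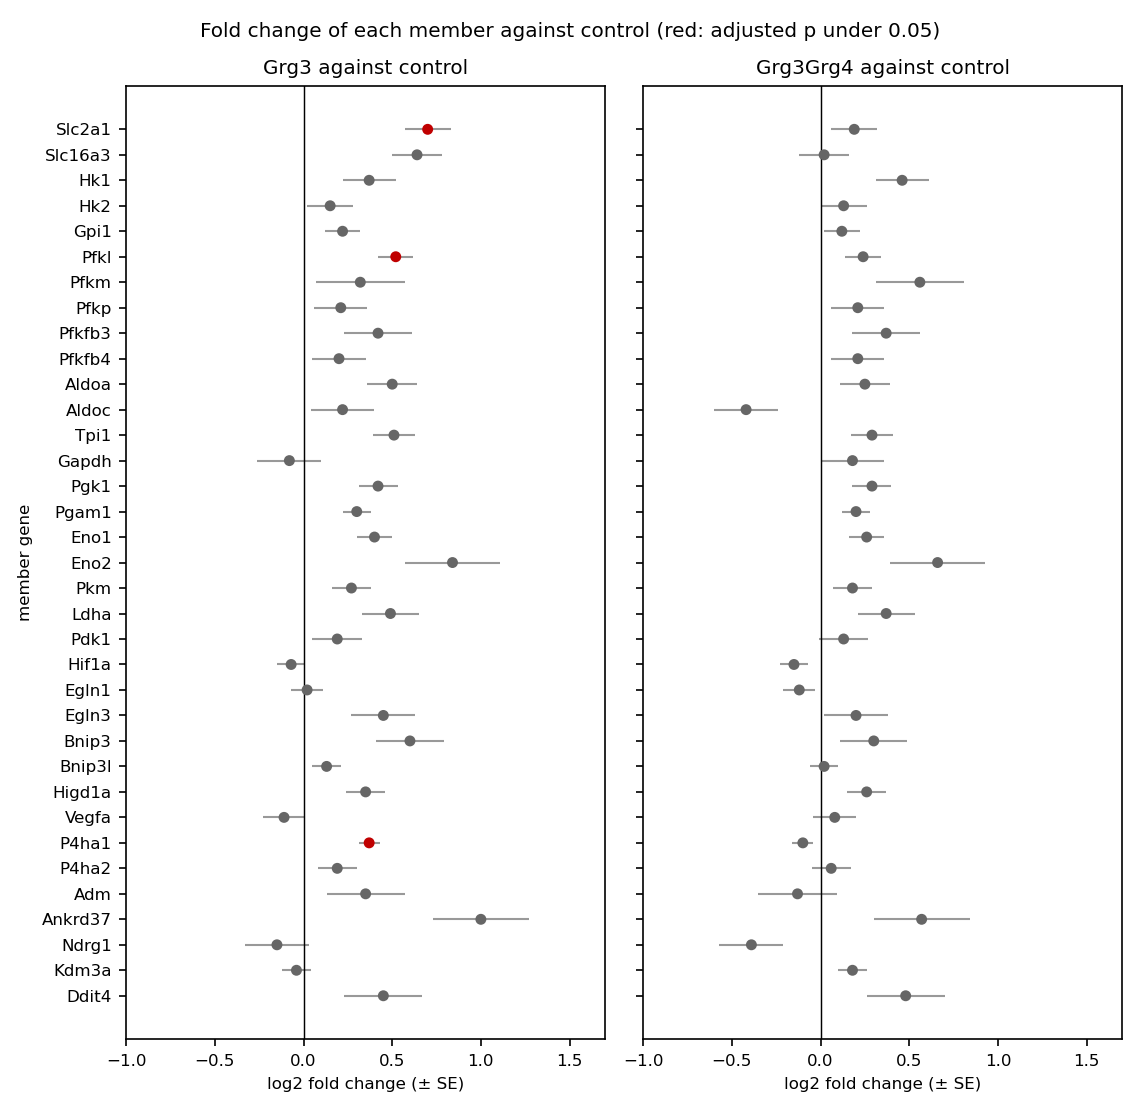
Log2 fold change against control (horizontal axis; dots are edgeR estimates and bars ± SE) of each of the 35 genes, for the Grg3 label (left) and the Grg3Grg4 label (right); red marks an adjusted p under 0.05. Slc2a1, Pfkl and P4ha1 are red on the left and no gene is on the right, and the medians are 0.35 and 0.20.

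Outside the 35, 123 tested genes of neighbouring pathways had 1 called higher and 0 lower in the Grg3 label (0.813% higher) and 3 higher and 0 lower in the Grg3Grg4 label (2.44%). Over all genes tested, 0.704% and 1.24% were called higher in these labels, and 0.694% and 0.897% lower. The median log2 fold changes of the 123 genes were 0.06 and 0.05. Pygl, the liver glycogen phosphorylase that releases glucose from glycogen, was called in both: 29.6, 34.2 and 37.7 CPM in controls, 58.4, 54.3 and 59.9 CPM in the Grg3 label, and 55.4, 54.0 and 60.9 CPM in the Grg3Grg4 label. All 6 lay far above the controls, with log2 fold changes of 0.77 (SE 0.10, edgeR adjusted p = 0.00725) and 0.75 (SE 0.10, edgeR adjusted p = 0.0073). Both calls were lost only without control replicate 2 of the 16 alternatives. Gys2, the liver glycogen synthase, had 3, 0 and 0 counts in controls, 39, 7 and 12 in the Grg3 label and 51, 58 and 132 in the Grg3Grg4 label. Per library depth that is a ratio of 15.4 (exact 95% interval 5.02 to 77.0) and 65.7 (22.2 to 321), intervals that cover counting error only, and edgeR called the second. That call held in 9 of 15 alternatives, with fitted log2 fold changes of 4.96 to 9.36, and was lost with sex as a term, without control replicate 1, 2 or 3, and without Grg3Grg4 replicate 1 or 3. Liver genes as a list were also higher in these libraries, as given above, and the part of liver RNA in Pygl and Gys2 was not tested. Wsb1, a HIF target of the ubiquitin pathway, measured 50.5, 40.6 and 46.5 CPM in controls, 53.0, 56.1 and 70.1 CPM in the Grg3 label, and 68.7, 81.9 and 74.2 CPM in the Grg3Grg4 label. It was called in the last (log2 fold change 0.71, SE 0.12, edgeR adjusted p = 0.0233), and the call was lost with sex as a term and without control replicate 1, 2 or 3 or Grg3Grg4 replicate 2.

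By list, the 32 other isoenzymes of glycolysis and pyruvate use had 0 calls by edgeR in both labels, with medians of -0.05 and 0.10. In the Grg3 label 9 of the 32 had an unadjusted p under 0.05, 4 of them higher, and in the Grg3Grg4 label 10, 6 of them higher, where 3661 and 3866 of all 19166 genes did. The 16 genes of gluconeogenesis and glycogen had medians of 0.35 and 0.33, with 1 and 2 called (6.25% and 12.5%). Another 39 HIF targets had 0 and 1 called (2.56% in the Grg3Grg4 label) and medians of 0.13 and -0.01. Of the 39 estimates, 30 in the Grg3 label and 19 in the Grg3Grg4 label were above 0. An unadjusted edgeR p under 0.05 was reached by 12 (11 higher) and 6 (5 higher). All 3 Grg3 libraries lay above the controls in 30.8% and below in 2.56%, against 12.6% and 12% of all genes. For the Grg3Grg4 libraries these were 12.8% and 7.69%, against 14.9% and 14.2%. Over all genes tested, 1.4% and 2.14% were called in either direction. The 12 genes of HIF subunits and regulators, among them Epas1, Arnt and Vhl, had none called, with medians of -0.05 in both. The 7 pentose phosphate genes (0.01 and -0.04) and the 17 genes of the tricarboxylic acid cycle (-0.03 and 0.11) also had 0 calls, by edgeR, in either label.

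Several isoenzyme genes had 1 or more libraries far from the others of their group. Eno3, the muscle enolase, measured 7.63, 63.8 and 7.98 CPM in the Grg3Grg4 label, and Pgam2, the muscle phosphoglycerate mutase, 2.22, 27.4 and 2.06 CPM. In both, replicate 2 was the high one, which is the library with the highest muscle level. Ldhb, the heart-type lactate dehydrogenase, likewise measured 18.8, 114 and 22.7 CPM there. Eno1b, a gene that shares sequence with Eno1, followed another split, at 4.83, 41.6 and 41.7 CPM in the Grg3 label and 4.44, 3.53 and 41.4 CPM in the Grg3Grg4 label, with 3.34 to 3.85 CPM in controls.

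**Figure D5:**
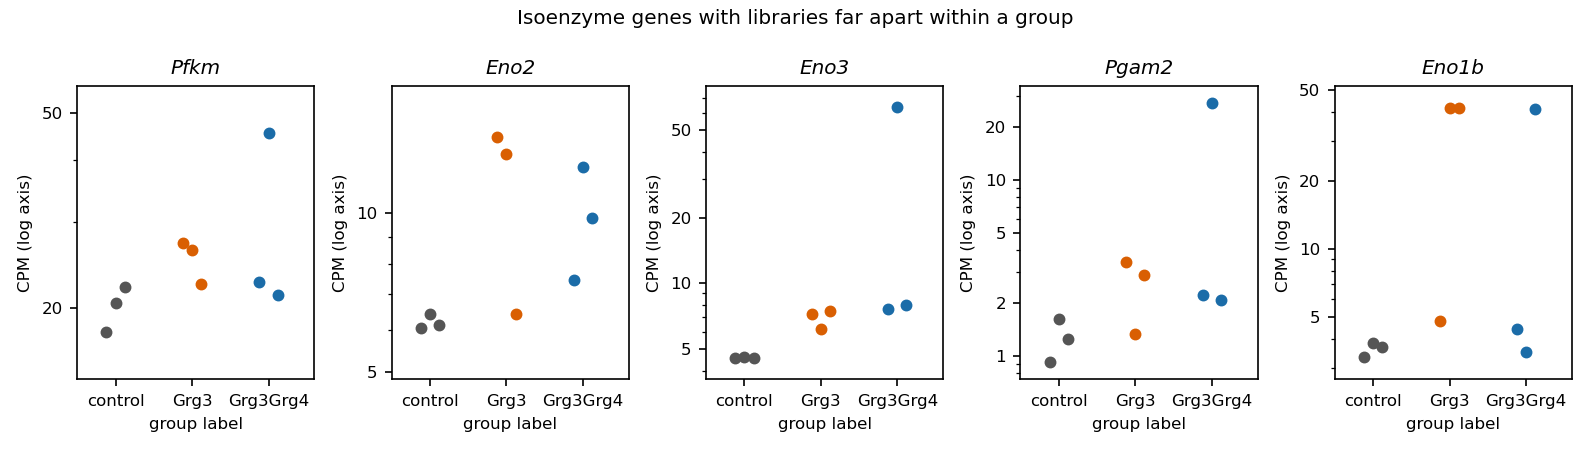
CPM of Pfkm, Eno2, Eno3, Pgam2 and Eno1b on log axes, by group label; each dot is a library and no error bars are drawn. In Pfkm, Eno3 and Pgam2 Grg3Grg4 replicate 2 (45.4, 63.8 and 27.4 CPM) stands above all other libraries, and Eno1b divides into libraries at 3.34 to 4.83 CPM and 3 libraries at 41.4 to 41.7 CPM.

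Shares within isoenzyme families were computed per length. Pfkl made up 67.1% ± 1.51 of phosphofructokinase RNA in controls, 70.4% ± 2.30 in the Grg3 label and 63.8% ± 8.26 in the Grg3Grg4 label (exact permutation p = 0.1 and 0.8 against control). P4ha1 made up 65.1% ± 2.01, 67.9% ± 1.04 and 62.6% ± 2.65 of P4ha1 and P4ha2 RNA (exact permutation p = 0.2 and 0.4 against control, and 0.1 between the mutant labels). Hk1 made up 44.8% ± 0.579, 48.8% ± 8.06 and 50.3% ± 4.70 of hexokinase RNA (exact permutation p = 0.6 and 0.2). With 3 libraries a group no exact p can fall below 0.1.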

How the data were processed

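Total RNA of 9 whole e18.5 pancreas libraries was analysed. The deposited files hold raw counts per gene symbol, 1 file per library. Per the submitters' processing notes, HISAT2 and HTSeq were among the tools, and the build was GRCm38 (mm10). Annotation, strand setting and tool versions were not given in the sources used here. Rows naming no gene held 28.5% to 33.2% of reads, mostly reads aligned to several places, and were left out. The members and gene lists were chosen with earlier results of these data known.

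The test was edgeR 4.0.16 (quasi-likelihood F test, 2-sided, TMM scaling, filterByExpr at 10 counts, total 15) on all 9 libraries in 1 fit, with Benjamini-Hochberg adjustment over 19166 genes. Gene positions and exon lengths came from GENCODE release M21 (GRCm38). Replicates of 1 group were not repeats of a library (chi-square per degree of freedom 17.4 to 207). The labels give 3 numbered libraries per group and do not say whether each came from a single embryo. The p-values set the differences between groups against the spread between these libraries. Alternatives were other scalings and filters, the replicate number as a block, sex as a term, a fit of the 6 compared, each replicate left out, DESeq2 1.42.0 and limma 3.58.1 voom; 1 more, without the libraries of highest muscle level, was chosen after seeing the data. All 35 members are named; every library's value is given for those called, those with all 6 mutant libraries above the controls and the smallest p of each role, and pathway genes are named where called.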

Additional observations from a re-analysis of the deposited data

Results flagged for a closer look

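P4ha1 differed between the 2 mutant labels by a test of the difference itself: the libraries labelled Grg3Grg4 lay -0.48 (log2, SE 0.06, edgeR adjusted p = 0.0282) from those labelled Grg3, lower in 3 of 3 libraries. The call held in 7 of 16 alternatives, with edgeR adjusted p from 1.04e-06 to 0.125.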

How the results depend on the processing

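The median change of the 35 genes kept its direction in all 16 alternatives of each comparison, at 0.29 to 0.38 in the Grg3 label, 0.14 to 0.24 in the Grg3Grg4 label and -0.20 to -0.08 between them, and no called gene reversed; the counts of calls moved much more, and the causes were not tested. Genes called in the Grg3 label numbered 268, and 586 without a filter, 169 with sex as a term, 1321 by DESeq2, 421 by limma's voom, 567 without the libraries of highest muscle level and 32 to 289 with 1 library left out. Members called higher there numbered 3, and 5 without a filter, 13 by DESeq2, 7 by voom, 10 without those libraries and 0 to 5 with 1 left out. In the Grg3Grg4 label all calls numbered 410, and 930 without a filter, 30 with sex as a term, 750 with only the 6 libraries compared, 1454 by DESeq2, 1033 by voom and 50 to 320 with 1 left out. Members there were 0, but 1 higher (Ldha) and 1 lower (Ndrg1) with only the 6 libraries, 1 higher (Hk1) by DESeq2, and 0 to 1 lower with 1 left out (Aldoc without Grg3Grg4 replicate 3). Between the mutant labels calls numbered 36, and 228 without a filter, 75 with a stricter one, 4 with sex as a term, 10 with only the 6 libraries, 880 by DESeq2, 13 without the libraries of highest muscle level and 6 to 49 with 1 left out. Members called lower there numbered 1, and 2 without a filter, 4 by DESeq2, 0 with sex as a term, with only the 6 libraries or without the libraries of highest muscle level, and 0 to 1 with 1 left out. The replicate number as a block gave 167, 254 and 11 calls in the 3 comparisons and 0 members called, higher or lower, in each, so Slc2a1, Pfkl and P4ha1 missed the threshold there. The numbers do not pair libraries: same-numbered libraries' deviations correlated at -0.086 to 0.094 (9 pairs), others at -0.148 to 0.165, and 2 of 9 libraries were closest to their own number. Without division by exon length, the shares were 71.1% and 74.7% for Pfkl (control, Grg3 label), 55.2%, 58.3% and 52.5% for P4ha1, 53.7%, 57.5% and 59.1% for Hk1 (control, Grg3 and Grg3Grg4 labels) and 2.01% for Eno2 in controls. With the whole 300-base window, 21.8% of all genes held ACGTG, 35.2% GCGTG and 46.7% either. With 3 libraries a group, small changes could miss the threshold.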
